A study of Mus musculus with 2 samples.

Results

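A set of 36 macrophage genes, made up of receptors, adaptors, regulators and growth factors, was followed in RNA from mouse dorsal root ganglia. They were taken by gene symbol from count tables of 23282 rows, and each of the 36 matched 1 row with at least 1 count in both libraries. The AEW group was wild-type mice given acetone, ether and water, a chemical model of dry-skin itch, for 5 days in a row. The control group was wild-type mice given water. The sources used here do not give strain, sex, age or skin site. Ganglia were collected on day 6, and RNA of 6 mice per group was pooled and sequenced as 1 library. No difference below therefore has a replicate check or a p-value, and the 2 pools cannot be told apart from the 2 treatments. The labels call the cells neurons, but the glial gene Mbp (45621 control and 57048 AEW counts) was present as well as the neuronal genes Tubb3 (6470 and 22704) and Uchl1 (11466 and 36922), so the libraries held RNA of other ganglion cells as well.

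Macrophages live in every sensory ganglion, where they lie around neurons and vessels, clear dying cells and debris, and multiply after nerve injury. Their survival depends on the receptor Csf1r and its ligands Csf1 and Il34, and their gene programme on the transcription factor PU.1, the product of Spi1. Many of their activating receptors have no signalling tail of their own and work through the adaptors Tyrobp (DAP12) and Fcer1g, whose phosphorylated tails recruit the kinase Syk.

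PU.1 is known to bind purine-rich sites around the core GAGGAA, so the RefSeq promoters (GRCm38.p6) of the members were searched for these letters on both strands, over the 250 bases before each start. Of the 36 genes, 27 had an entry, and Adgre1, Spi1, Il34, Clec10a, Msr1, Cd14, Csf1r, Tyrobp and Lyve1 had none. GAGGAA was present for 13 of the 27 (48.1%), against 25.9% of 27025 genes with a promoter entry. By single promoter, 14 of 32 member promoters held it, against 23.3% of 32851. The longer form GAGGAAGT, which contains GAGGAA, was present for 1 of 27 member genes, Pf4, and for 2.79% of all genes. The 100 bases before the start are shown for 6 members that carry the core close to the start, and for Ms4a7 and Coro1a, the lowest and the highest ratio of the set, which do not carry it in the window searched. Fcgr3, Ms4a7 and Coro1a have more than 1 start, and 1 of them is shown. Capitals mark GAGGAA or its reverse complement TTCCTC.
Trem2 (chr17:48346301-48346400, plus strand): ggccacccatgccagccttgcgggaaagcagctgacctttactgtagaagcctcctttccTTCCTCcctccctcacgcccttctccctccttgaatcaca
Fcgr1 (chr3:96293970-96294069, minus strand): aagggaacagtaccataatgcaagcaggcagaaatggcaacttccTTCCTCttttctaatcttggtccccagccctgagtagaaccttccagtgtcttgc
Fcgr3 (chr1:171059395-171059494, minus strand): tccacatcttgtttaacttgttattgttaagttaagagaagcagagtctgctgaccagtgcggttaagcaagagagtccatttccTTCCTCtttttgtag
Itgam (chr7:128062540-128062639, plus strand): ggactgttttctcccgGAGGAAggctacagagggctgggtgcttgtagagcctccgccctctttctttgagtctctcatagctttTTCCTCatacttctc
Laptm5 (chr4:130913216-130913315, plus strand): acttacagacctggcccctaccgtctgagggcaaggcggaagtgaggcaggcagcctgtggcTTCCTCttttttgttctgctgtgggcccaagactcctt
Pf4 (chr5:90772335-90772434, plus strand): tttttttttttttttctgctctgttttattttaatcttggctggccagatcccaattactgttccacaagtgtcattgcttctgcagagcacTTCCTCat
Ms4a7 (chr19:11336147-11336246, minus strand): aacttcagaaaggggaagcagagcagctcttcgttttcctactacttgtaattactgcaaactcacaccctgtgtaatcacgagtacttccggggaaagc
Coro1a (chr7:126704817-126704916, minus strand): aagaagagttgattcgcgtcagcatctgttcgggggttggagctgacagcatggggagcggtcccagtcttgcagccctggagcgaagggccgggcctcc
In Trem2, Fcgr1, Fcgr3, Laptm5 and Pf4 the core lies on the strand opposite to the gene, and Itgam has it once on each strand. All 13 members with the core were among those called lower in the AEW library by the rule given next, as were 8 of the 13 measured members without it. The members that had no promoter entry were all called lower too, and whether they carry the core is not known. Some members are also expressed by other cells of nerve or skin. Of these, Csf1, Gas6, Gpnmb and Coro1a were among the measured ones without the core, and Axl among those with it. Whether this bears on the split was not tested. Over all measured genes with a promoter entry, 16.7% of 2923 with the core and 13.2% of 8290 without it were called lower. Whether PU.1 binds any of these letters was not measured.

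As a group, the macrophage genes were lower in the AEW library. Each ratio is the AEW to control ratio of scaled counts, with an exact 95% interval that covers counting error only. Genes with 20 or more counts over both libraries were taken as measured, and a gene was called when it differed at least 1.5-fold with an interval excluding 1. Of 35 measured members, 30 were called lower, 1 higher and 4 neither. Among all 14854 measured genes, 14.9% were called lower and 17.3% higher. The median log2 ratio of the members was -1.29, with quartiles at -1.55 and -0.98, and that of all measured genes was 0.03. At 2-fold, 26 members and 6.85% of all measured genes were lower. Together the 36 genes took 0.127% of the control counts (0.125 to 0.129) and 0.0704% of the AEW counts (0.0690 to 0.0718). In pooled RNA, fewer macrophages, less of each RNA per macrophage and a different mix of other cells in the 2 pools cannot be told apart.

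**Figure D1:**
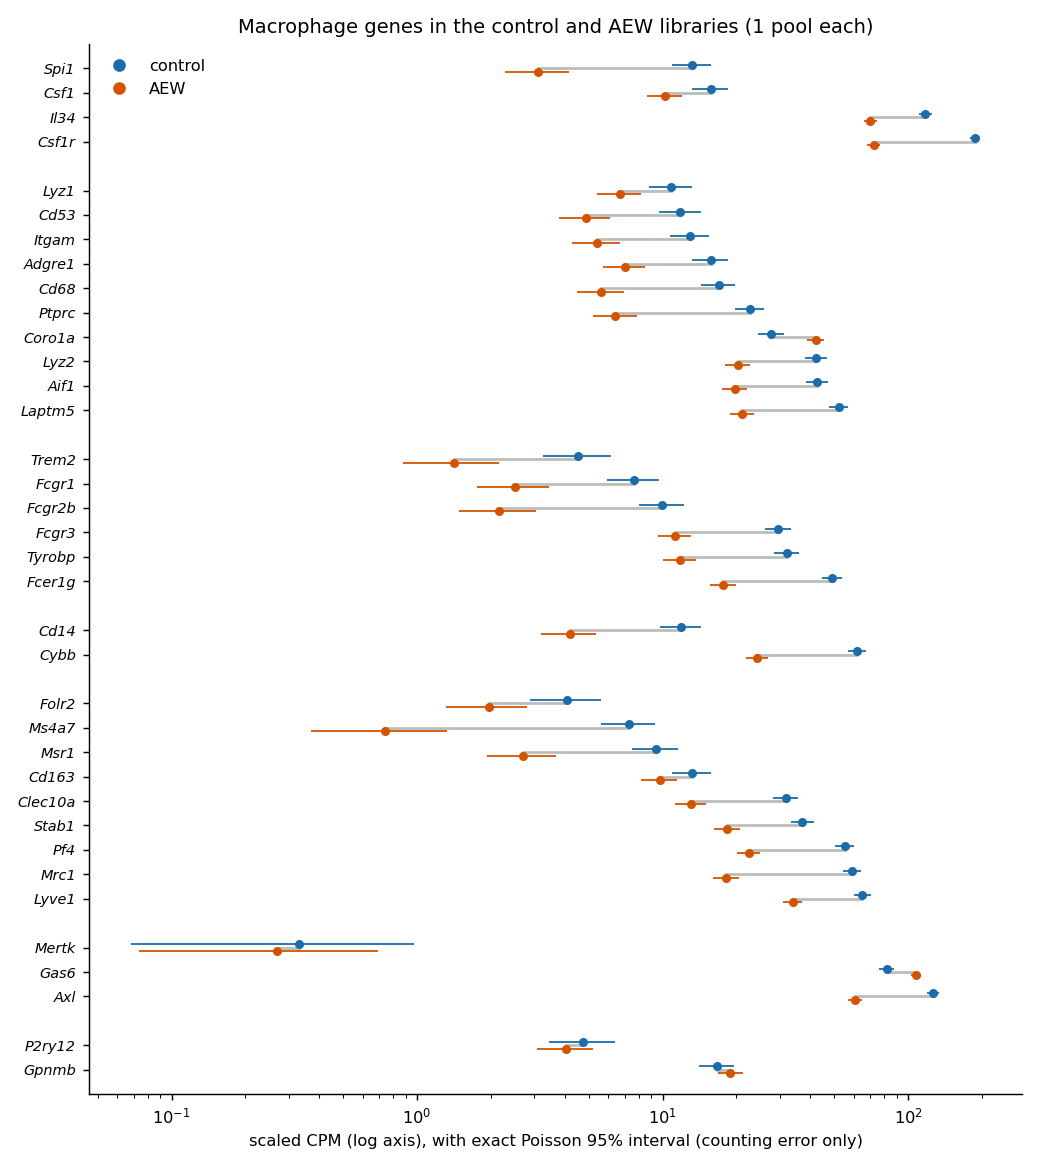
Scaled CPM (counts relative to the scaled library size, log axis) of the 36 macrophage genes in the control (blue) and AEW (orange) libraries, grouped by role, with exact Poisson 95% intervals. The AEW point lies left of the control point for all genes except Coro1a, Gas6 and Gpnmb, and the intervals of Mertk, at 3 and 4 counts, are the widest.

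A further yardstick was the scatter among genes of like abundance. A gene was set apart when its log2 ratio lay over 3 scaled median absolute deviations from the median of the 500 genes nearest in mean expression. With this added limit 4 members stayed called lower, namely Ms4a7, Mrc1, Fcer1g and Ptprc, against 0.633% of all measured genes. Most single members thus lay inside the scatter of ratios that other genes of their abundance showed between these 2 pools, at its lower side. Of all measured genes, 0.108% had a lower ratio than Ms4a7, 0.687% than Fcgr2b, 0.815% than Spi1 and 3.26% than Csf1r.

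**Figure D2:**
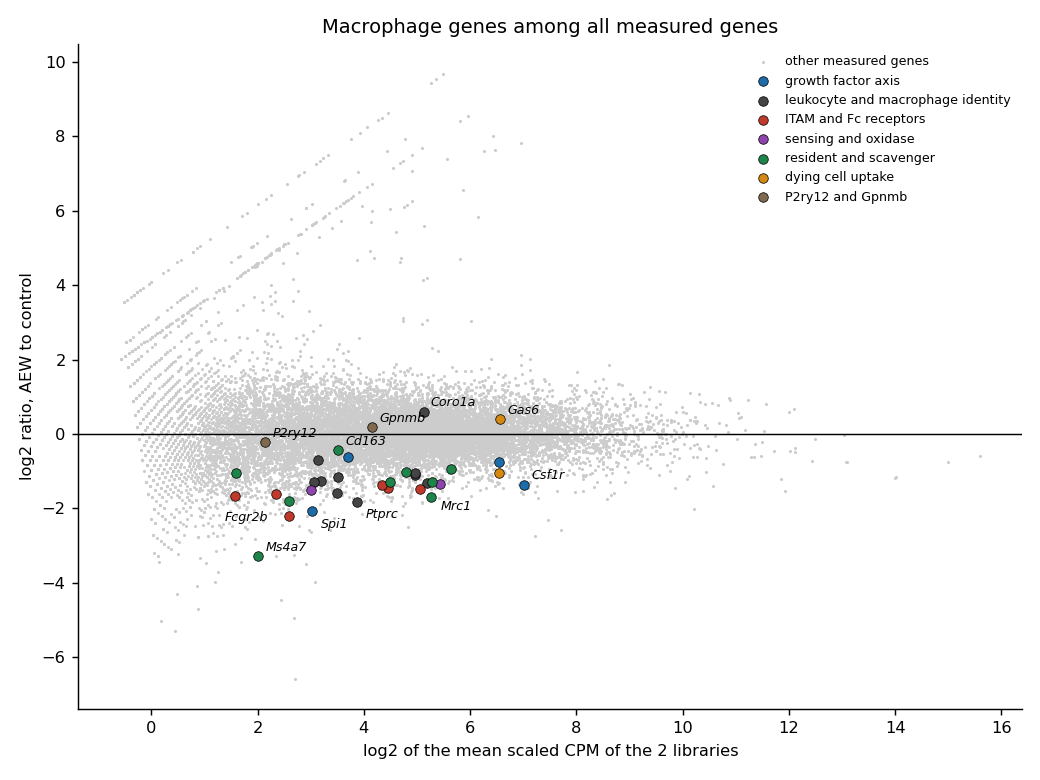
Log2 ratio (AEW to control) against the log2 mean scaled CPM for all measured genes (grey) and for the measured macrophage genes, coloured by role. Most members form a band between -1 and -2 at the lower edge of the grey cloud, Ms4a7 lies at -3.30, and Coro1a, Gas6 and Gpnmb lie above 0.

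The receptor of the growth factor axis was lower by more than its ligands were. Csf1r, the receptor that macrophages need to survive (ENSMUSG00000024621.16, mm10 chromosome 18, 61100598 to 61132149, plus strand), had 1695 control and 1074 AEW counts, or 187 and 72.5 scaled CPM, and was 2.58-fold lower (2.39 to 2.79). Il34, a ligand of Csf1r that neurons and keratinocytes also make, had 1063 and 1038 counts (117 and 70.0 CPM) and was 1.68-fold lower (1.54 to 1.83). Csf1, the other ligand, which injured sensory neurons release, had 142 and 151 counts (15.7 and 10.2 CPM) and was 1.54-fold lower (1.22 to 1.95), close to the threshold. The interval of Csf1r does not overlap that of either ligand. Spi1, which encodes PU.1 (ENSMUSG00000002111.8, mm10 chromosome 2, 91082390 to 91115756, plus strand), was the lowest of these genes at 4.23-fold (2.99 to 6.09), with 119 control and 46 AEW counts. Of the exonic bases of Csf1r, 15.1% overlap exons of Hmgxb3 on the opposite strand, and the use of strand in counting is not given. Hmgxb3 had 204 and 254 counts.

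Of the 4 pan-leukocyte members, 3 were called lower and Coro1a higher. Ptprc, the pan-leukocyte phosphatase CD45, had 205 control and 95 AEW counts and was 3.53-fold lower (2.76 to 4.55). Cd53, a leukocyte tetraspanin, had 107 and 72 counts and was 2.43-fold lower (1.79 to 3.33). Laptm5, a lysosomal membrane protein of blood cells, had 473 and 312 counts and was 2.48-fold lower (2.15 to 2.87). All 3 of these genes were thus lower by more than 2-fold. Coro1a, an actin regulator of leukocytes that neurons also express, was the only member called higher. It had 251 and 623 counts (27.7 and 42.0 CPM), a ratio of 1.52 (1.31 to 1.76), just past the threshold. Scaled on upper quartiles, or after a correction for GC content, Coro1a was not called, and scaled on pan-neuronal markers its log2 ratio was -0.13.

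All 6 macrophage identity genes were called lower, from 1.62-fold for Lyz1 to 3.02-fold for Cd68, but Lyz1 had no call when the libraries were scaled on Schwann cell and satellite glia genes or when the interval had to exclude 1.5-fold. Cd68, a lysosomal glycoprotein of macrophages, had 153 and 83 counts and was 3.02-fold lower (2.30 to 3.99). Itgam, the integrin chain CD11b, had 117 and 80 counts and was 2.39-fold lower (1.79 to 3.22). Adgre1, the F4/80 antigen, had 142 and 104 counts and was 2.235-fold lower (1.72 to 2.91). The intervals of these 3 genes overlap. Aif1, the actin-bundling protein Iba1, had 386 and 291 counts and was 2.17-fold lower (1.86 to 2.54). Its interval overlaps those of Cd68, Itgam and Adgre1 too. In the annotation used here, 68.7% of the exonic bases of Itgam are shared with the overlapping gene model Gm49368 on the same strand. The lysozyme genes Lyz2 (383 and 300 counts) and Lyz1 (98 and 99 counts) were 2.09-fold (1.79 to 2.44) and 1.62-fold (1.21 to 2.16) lower. These are neighbouring copies, 16.1% of the 50-base words of Lyz1 transcripts occur in Lyz2, and the handling of reads that match both is not stated, so their split is uncertain.

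All 6 genes of the immunoreceptor adaptor and Fc receptor group were called lower, each by more than 2-fold. Tyrobp, the adaptor of Trem2, had 290 control and 174 AEW counts, and Fcer1g, the common gamma chain of activating Fc receptors, had 444 and 261. They were lower by nearly the same factor, 2.73-fold (2.25 to 3.31) and 2.78-fold (2.38 to 3.26). Trem2, a lipid receptor that signals through Tyrobp, was 3.20-fold lower (1.85 to 5.69) at 41 and 21 counts. Fcgr1, the high-affinity IgG receptor, had 69 and 37 counts and was 3.05-fold lower (2.02 to 4.68). Fcgr3, a low-affinity activating receptor, had 267 and 167 counts and was 2.62-fold lower (2.15 to 3.19). Fcgr2b, the inhibitory Fc receptor, was the lowest of the group at 4.60-fold (3.04 to 7.12), with 90 and 32 counts. Its interval overlaps that of Fcgr3, and 9.58% of the 50-base words of Fcgr3 transcripts occur in Fcgr2b.

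**Figure D3:**
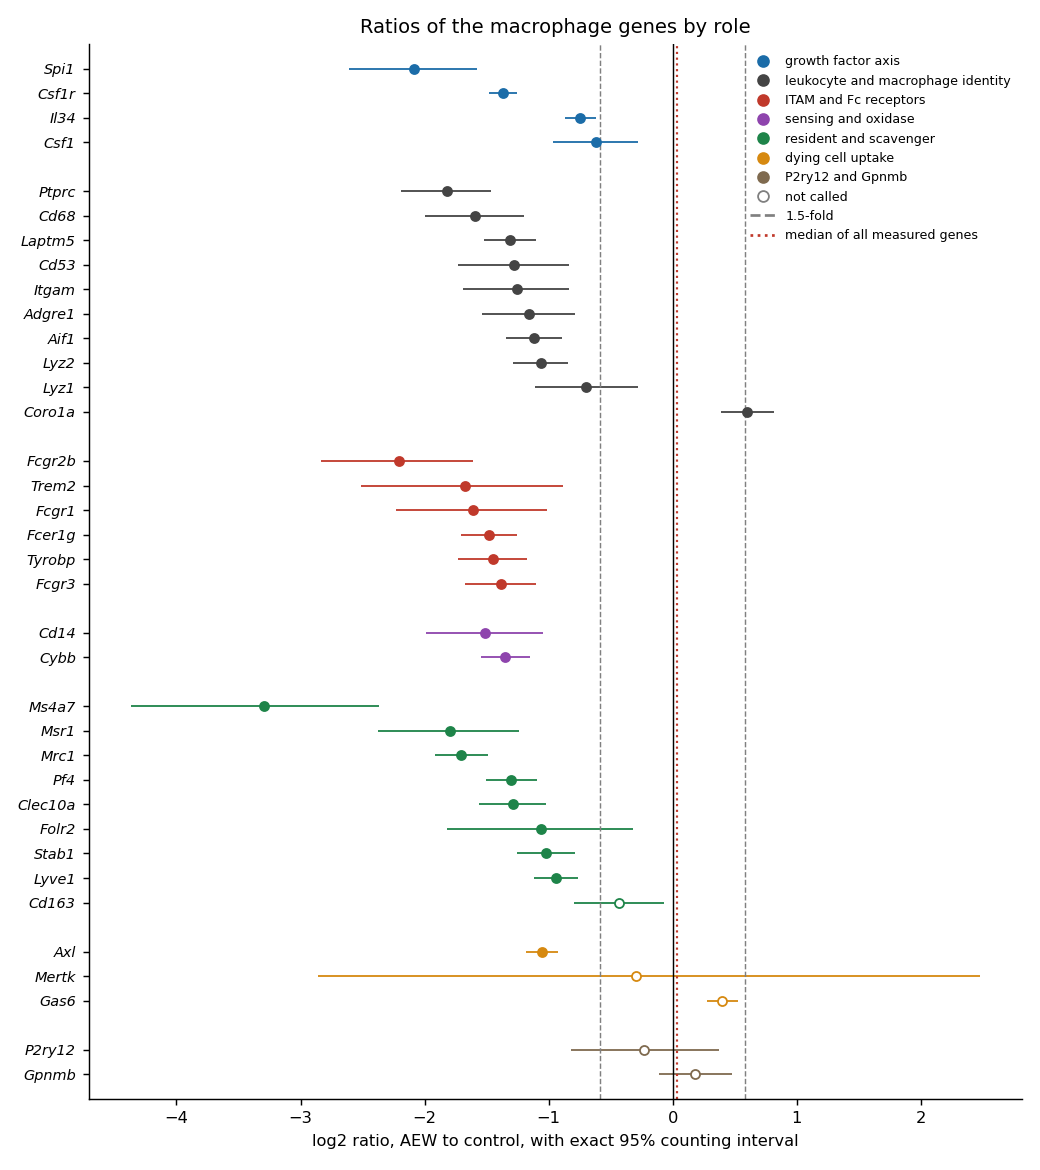
Log2 ratio (AEW to control) of each macrophage gene with its exact 95% counting interval, by role. Filled points are called and open points are not, dashed lines mark 1.5-fold, and the dotted line marks the median of all measured genes at 0.03. The adaptor and Fc receptor genes lie at or below -1.39, while P2ry12, Gpnmb, Gas6 and Cd163 are not called.

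A further list held kinases, phosphatases and other signalling partners of these adaptors along with related receptors. Of its 13 measured genes, 10 were called lower and none higher. Plcg2, Inpp5d and Sh3bp2 had no call, and the median of the list was -1.16 on the log2 scale. The phosphatase gene Ptpn6 was 2.81-fold lower (2.10 to 3.77). Syk, the kinase that both adaptors recruit, was 1.72-fold lower (1.19 to 2.47) at 65 and 62 counts.

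Cd14, a co-receptor for bacterial lipopolysaccharide, had 108 control and 62 AEW counts and was 2.85-fold lower (2.07 to 3.96). Cybb, the catalytic subunit of the phagocyte NADPH oxidase, had 560 and 360 counts (61.9 and 24.3 CPM) and was 2.55-fold lower (2.23 to 2.91). The partners of Cybb were lower by similar factors. All 6 genes of the oxidase list were called lower, from Hvcn1, the proton channel that supports the oxidase, at 1.84-fold (1.23 to 2.78) to the cytosolic subunit Ncf4 at 3.36-fold (2.25 to 5.09). Cyba, which forms the membrane core with Cybb, was 2.31-fold lower (1.92 to 2.79).

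Scavenger receptors and genes of tissue-resident macrophages were called lower in 8 of 9. Ms4a7, a membrane protein of macrophages (ENSMUSG00000024672.11, mm10 chromosome 19, 11321039 to 11336146, minus strand), had 66 control and 11 AEW counts, or 7.29 and 0.742 scaled CPM, and was 9.82-fold lower (5.15 to 20.6). Mrc1, the mannose receptor CD206 (ENSMUSG00000026712.3, mm10 chromosome 2, 14229392 to 14332057, plus strand), had 535 and 269 counts and was 3.26-fold lower (2.81 to 3.78). Ms4a7 and Mrc1 are the 2 genes of this role that stood apart from genes of like abundance. The class A scavenger receptor gene Msr1 had 85 and 40 counts and was 3.48-fold lower (2.36 to 5.20). The chemokine gene Pf4, made by macrophages and platelets, had 501 and 333 counts and was 2.46-fold lower (2.14 to 2.84).

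For 4 other genes of the resident type the ratio lay nearer to 1 than for Mrc1, with intervals that overlap that of Mrc1 for Clec10a and Folr2 and do not for Stab1 and Lyve1. The lectin gene Clec10a had 288 and 193 counts and was 2.44-fold lower (2.03 to 2.95). The folate receptor gene Folr2 had 37 and 29 counts and was 2.09-fold lower (1.25 to 3.52). The scavenger receptor gene Stab1 had 336 and 271 counts and was 2.03-fold lower (1.72 to 2.39). Lyve1 encodes a hyaluronan receptor that is also found on lymphatic vessels. It had 590 and 503 counts and was 1.92-fold lower (1.70 to 2.17). Of the 50-base words of Clec10a transcripts, 8.49% occur in its relative Mgl2, which had 210 and 187 counts, and 63.1% of the exonic bases of Folr2 overlap the gene model Gm10602 on the opposite strand. Cd163, the haemoglobin scavenger receptor, was not called. It had 119 and 144 counts (13.1 and 9.72 CPM), a ratio of 0.74 (0.58 to 0.95). The intervals of Cd163 and Mrc1, both receptors of resident macrophages, do not overlap.

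Genes for the uptake of dying cells did not share a direction. Gas6, the bridging ligand that links dying cells to its receptors, had 741 control and 1600 AEW counts, a ratio of 1.32 (1.21 to 1.44) that is under the threshold. Axl, a receptor of Gas6, had 1142 and 900 counts and was 2.08-fold lower (1.90 to 2.27). Mertk, the receptor by which macrophages take up dying cells, had 3 and 4 counts, a ratio of 0.81 (0.14 to 5.56), and could not be compared at this depth. The third Gas6 receptor, Tyro3, which neurons express, was 2.13-fold higher (1.72 to 2.65) at 110 and 383 counts. Pros1, protein S, the other ligand of these receptors, was 2.17-fold lower (1.93 to 2.43). Besides Tyro3, the list of other uptake genes had 4 of 10 measured genes lower (Pros1, Mfge8, Dock2 and Gulp1) and 5 without a call, and its median on the log2 scale was -0.51.

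P2ry12, the ADP receptor that marks microglia and some resident macrophages, had 43 control and 60 AEW counts, a ratio of 0.85 (0.57 to 1.29). Gpnmb, a glycoprotein of lipid-laden macrophages that pigment cells also express, had 151 and 280 counts, a ratio of 1.13 (0.93 to 1.39). Neither gene was called. The interval of Gpnmb does not overlap that of Trem2, a gene of the same lipid-laden state.

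A list of other macrophage genes, none of them a member, had 22 of 26 measured genes called lower, 1 higher and 3 without a call. Like the members, these genes were chosen with earlier results of these data known, so they are not an independent check. The median of the list was -1.31 on the log2 scale. Cd33, a sialic acid receptor of myeloid cells, was 13.1-fold lower (5.17 to 42.5) at 40 and 5 counts, and Mmp12, the macrophage elastase, had 117 and 2 counts, a ratio of 0.010 (0.0013 to 0.0386). The lysosomal gene Lgmn was called higher, at 1.66-fold (1.48 to 1.85). Of 9 measured myeloid transcription factors, 4 were lower, 1 higher and 4 neither. Irf8, the partner of PU.1 in monocytes and macrophages, was 3.55-fold lower (2.84 to 4.46). Maf was 1.64-fold lower (1.55 to 1.75) at 2100 and 2092 counts. Runx1, which sensory neurons also express, was 1.60-fold higher (1.41 to 1.82). Which cells gave the reads of each of these factors, Maf included, was not measured.

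Most measured neutrophil, mast cell and further pan-leukocyte genes were lower as well. Of 11 measured pan-leukocyte genes that are not members, 8 were called lower and none higher (median -1.06), and the actin bundler gene Lcp1 had a ratio of 1.30 (1.19 to 1.44). Neutrophil genes were lower in 11 of 12 (median -1.46) and took 0.162% (0.159 to 0.164) of the control counts and 0.0562% (0.0550 to 0.0575) of the AEW counts. Mast cell genes were lower in 6 of 7 (median -1.31), T and NK cell genes in 2 of 4 and B cell genes in 1 of 3. Summed over each list, the counts of the members were 1.92-fold lower (1.87 to 1.97), those of neutrophil genes 3.05-fold (2.97 to 3.14) and those of mast cell genes 2.35-fold (2.17 to 2.55). Some members, among them Itgam, Cybb, Fcer1g and the pan-leukocyte genes, are also expressed by neutrophils or mast cells. The part of these cells in the ratios of the members was not tested.

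**Figure D4:**
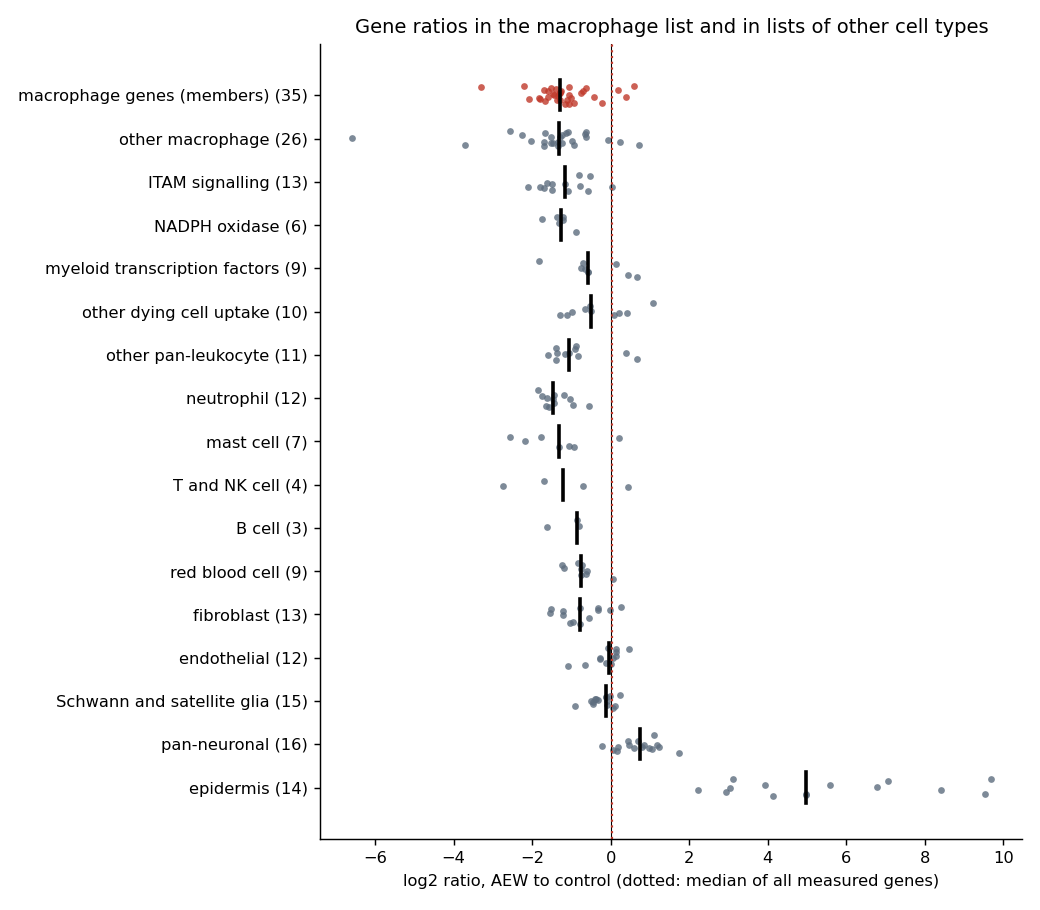
Log2 ratios (AEW to control) of the measured genes in the macrophage list and in lists of other cell types and pathways, with the number of measured genes in parentheses. Points are genes, black bars are list medians, and the dotted line is the median of all measured genes. The white blood cell lists shown have medians between -0.86 and -1.46, the fibroblast list -0.79, the endothelial list -0.03 and the pan-neuronal list 0.73. The list of dendritic and Langerhans cell genes (median -0.46) is not shown.

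Markers of other cell types differed between the 2 pools as well, and the size of the macrophage difference depends on what it is set against. Fibroblast genes were called lower in 8 of 13 (median -0.79) and took 1.45% (1.45 to 1.46) of the control and 0.748% (0.744 to 0.753) of the AEW counts. Red blood cell genes were lower in 8 of 9 (median -0.75). Among these, Hbb-bs (99044 and 96798 counts) and Hbb-b1 (98099 and 95624) had nearly equal counts, as did Hbb-bt and Hbb-b2. The same reads may thus count in more than 1 row. Pan-neuronal genes were higher in 9 of 16 (median 0.73), at 0.855% (0.849 to 0.861) and 1.43% (1.43 to 1.44) of counts. Endothelial genes (2 of 12 lower, median -0.03) and those of Schwann cells and satellite glia (1 of 15 lower, median -0.13) differed little as lists. All 14 measured epidermal genes were higher. With Krt77, which was not measured, the list had 309 and 11161 counts, and Krt77, Ivl, Dsg1a and Dsc3 were at 0 in the control. The part of these differences in the macrophage ratios was not tested.

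Scaled so that the median endothelial gene was unchanged, 30 macrophage genes were called lower (median -1.25), and 28 were with Schwann cell and satellite glia genes (median -1.16). Scaled on fibroblast genes, 13 members were called lower and 3 higher (Gas6, Coro1a and Gpnmb), with a median of -0.50, while the median of all measured genes rose to 0.82. The 13 were Ms4a7, Mrc1, Trem2, Cd68, Cd14, Fcer1g, Tyrobp, Fcgr3, Ptprc, Spi1, Fcgr1, Fcgr2b and Msr1. All 6 adaptor and Fc receptor genes are among them, but Csf1r and its ligands are not, and on this scale the signs of Csf1, Il34, Lyz1 and the uncalled Cd163 and P2ry12 turned. Scaled on pan-neuronal genes, 32 members were called lower and none higher, with a median of -2.02 beside -0.70 for all measured genes, and Coro1a, Gas6 and Gpnmb turned below 0. Without Csf1, Il34, Gas6, Axl, Mertk, Gpnmb and Lyve1, which other cells of nerve or skin are known to express, 26 of 29 members were lower. The 29 had a median of -1.35 and 2.32-fold fewer scaled counts in sum (2.24 to 2.40). They still include Coro1a, Pf4, Itgam, Cybb, Fcer1g and the pan-leukocyte genes, which other cells express too.

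**Figure D5:**
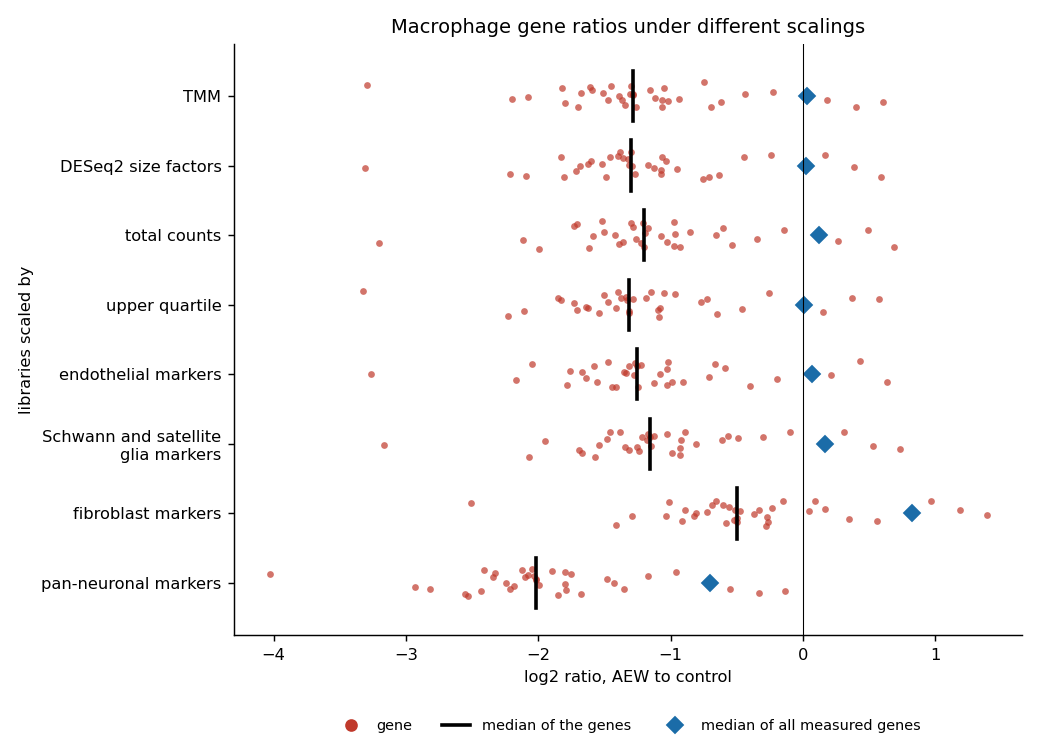
Log2 ratios (AEW to control) of the measured macrophage genes under different ways of scaling the 2 libraries. Points are genes, black bars their median and blue diamonds the median of all measured genes. The median of the macrophage genes is below 0 under each scaling shown, from -0.50 on fibroblast markers to -2.02 on pan-neuronal markers.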

How the data were processed

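The deposited files hold counts, whole-number reads per gene symbol without normalization, made by the authors with Bowtie2 and bedtools on mm10 per the submitters' processing notes. Per the labels' protocols, libraries were made from 500 ng of Trizol RNA with a Lexogen kit that the labels call Quant-Seq; whether its reads cover only the 3′ ends of transcripts is not settled by the labels, and the exon overlaps given are for whole transcripts. The sources used here do not give the annotation, strand use, or handling of multiple matches and duplicates, so levels are not compared between genes. Totals were 9333882 counts (control) and 14376228 (AEW). Libraries were scaled with TMM in edgeR 4.0.16 (R 4.3.3; factors 0.970 and 1.03). Ratios have exact conditional binomial (Clopper-Pearson) intervals, and shares exact binomial ones. Neither covers more than counting error, since each group has 1 library. Reads carry no molecular identifiers, so duplicates may be counted and the intervals may be too narrow. With 1 library per group no test was run. A count of 0 allows 3 counts per library. The 79 rows with repeated symbols stayed in totals only. Positions come from GENCODE M21 (mm10) and promoters from RefSeq. All 36 members are described; other lists contribute up to 4 genes, those with the most extreme interval bounds, plus partners of members; some genes are not reported here. Mbp, Tubb3, Uchl1, Lcp1, Ncf4 and Hvcn1 were chosen after their values were seen. The members and lists were chosen with earlier results of these data known. Alternatives used DESeq2 1.42.0 size factors and other scalings, filters, thresholds and gene sets.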

Additional observations from a re-analysis of the deposited data

How the results depend on the processing

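The limits are 1 pool per group, intervals for counting error only, and low counts of Mertk, Trem2, Folr2, P2ry12 and Ms4a7. Of the alternatives tried, the number of members called lower left the range of 27 to 32 in these cases. It was 13 with fibroblast scaling, 4 with the limit of 3 scaled median absolute deviations and 26 at 2-fold. Within the smaller set of 29 members, without Csf1, Il34, Gas6, Axl, Mertk, Gpnmb and Lyve1, it was 26. This set still holds members that other cells express too, such as Coro1a, Itgam and Cybb. No member was called higher with upper quartile or pan-neuronal scaling, with GC correction, with an interval excluding 1.5-fold, at 2-fold or with the deviation limit (0 in each), and 3 were with fibroblast scaling. The median log2 ratio was -1.30 with DESeq2 size factors, -1.20 with total counts and -1.32 with upper quartile scaling. It was -2.02 with pan-neuronal, -1.16 with Schwann and satellite glia, -0.50 with fibroblast and -1.25 with endothelial scaling. With totals that leave out keratin, envelope, haemoglobin and ribosomal rows it was -1.27. It was -1.255 with the AEW library thinned and -1.25 after GC correction. In the smaller set it was -1.35, and without Lyz1 -1.29. Glia scaling lost the calls of Csf1 and Lyz1, with 33.5% lower among all calls. Total count scaling lost that of Csf1 and gave 37.7% lower among all calls, against 46.3% with TMM and 93.2% and 3.79% with pan-neuronal and fibroblast scaling. The shares of counts were 0.1498% and 0.07898% over the reduced totals, and 0.0858% and 0.0393% for the smaller set. With fibroblast scaling the log2 ratios of Csf1 (0.16), Il34 (0.0413) and Lyz1 (0.0903) turned positive, as did those of Cd163 and P2ry12, which had no call. With pan-neuronal scaling that of Coro1a turned to -0.13, and those of Gas6 and Gpnmb, which had no call, turned negative. These turns follow from the shift that each scaling applies to every gene. No paired analysis was possible because each group has 1 library.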

Other observations

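Genes of dendritic and Langerhans cells, the antigen-presenting relatives of macrophages, did not share a direction. Of 8 measured genes on this list, 4 were called lower (Clec9a, H2-Aa, H2-Ab1 and Cd74), 2 higher (Flt3 and Epcam) and 2 neither, with a median of -0.46 on the log2 scale. H2-Aa, a chain of the class II antigen-presenting molecule that macrophages also carry, had 3488 control and 2582 AEW counts and a ratio of 0.452 (0.430 to 0.476). Clec9a, a receptor for dead cells on dendritic cells, had 28 and 10 counts and a ratio of 0.218 (0.0946 to 0.463). Flt3, a growth factor receptor that dendritic cells need, had 35 and 161 counts and a ratio of 2.81 (1.94 to 4.18). Epcam, an adhesion molecule of epithelia and Langerhans cells, had 1 and 140 counts, a ratio of 85.5 with a counting interval of 15.1 to 3402, while the Langerhans cell lectin gene Cd207 had 10 and 0 counts.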
